A study of Mus musculus with 20 samples.

Results

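The myeloid C-type lectin receptors described here are 9 mouse genes, Clec4a1, Clec4a2, Clec4a3, Clec4b1, Clec4d, Clec4e, Clec4n, Clec7a and Clec12a. They were taken by name from 55260 annotated genes, and all 9 had counts. The values come from RNA sequencing of sorted leukocytes from MC38-OVA tumours, a mouse colon carcinoma line that expresses ovalbumin, grown in C57BL/6 mice. Each of 5 treatments gave 4 sorted populations. The treatments were RT with both antibodies, RT with anti-PD-1, RT with anti-SIRPa, RT alone, and untreated (sham-irradiated by the series text), where RT is a single 8 Gy dose on day 12. Anti-PD-1 (250 µg on days 12 and 15) blocks an inhibitory receptor of activated T cells, and anti-SIRPa (400 µg on days 12, 14 and 16) blocks the myeloid receptor of CD47. Tumours were taken on day 17. The populations were CD8 T cells, CD11c+CD11b- and CD11c+CD11b+ cells (both dendritic cells by their labels), and CD11c-CD11b+ cells (MCs by their labels). Each treatment and population was 1 library, from leukocytes pooled over 10 tumours, 1 tumour per mouse, and the 4 populations of a treatment share that pool. Each pool had its own treatment, so the p-values below measure a spread between pools that includes treatment effects.

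C-type lectin receptors are surface proteins through which phagocytes read glycans and glycolipids of microbes and of damaged cells. Clec4e (Mincle), Clec4d (MCL) and Clec4n (Dectin-2) have no signalling motif of their own and use the adaptor encoded by Fcer1g, whereas Clec7a (the beta-glucan receptor Dectin-1) carries an activating motif in its tail. Both routes recruit the kinase Syk and the adaptor Card9, and lead to cytokine and chemokine genes such as Il1b and Cxcl2. Clec4a2 (DCIR) and Clec12a (MICL) carry inhibitory motifs that recruit phosphatases such as Ptpn6 (SHP-1). Clec4a1 and Clec4a3 are relatives of Clec4a2, and Clec4b1 (DCAR) is a further receptor that uses the Fcer1g adaptor.

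The genes lie in 2 stretches of mouse chromosome 6 in GRCm38. The first stretch holds Clec4a1 (122921848 to 122934619, plus strand), Clec4a3, Clec4b1, Clec4a2, Clec4n, Clec4d (123262111 to 123275265, plus strand) and Clec4e (123281789 to 123289870, minus strand). The second holds Clec12a (129342691 to 129365303, plus strand) and Clec7a (129461591 to 129472779, minus strand). The promoters of 4 genes are printed because Clec4d and Clec4e on one side, and Clec7a and Clec12a on the other, form the pairs whose levels set the populations and treatments apart below. They are RefSeq windows on GRCm38.p6, from 250 bases before to 50 after the start site, read 5′ to 3′ on the strand of the gene, with motif matches in capitals. The RefSeq start of Clec12a lies inside the annotated gene.
Clec4d, chr6:123261857-123262156, plus strand: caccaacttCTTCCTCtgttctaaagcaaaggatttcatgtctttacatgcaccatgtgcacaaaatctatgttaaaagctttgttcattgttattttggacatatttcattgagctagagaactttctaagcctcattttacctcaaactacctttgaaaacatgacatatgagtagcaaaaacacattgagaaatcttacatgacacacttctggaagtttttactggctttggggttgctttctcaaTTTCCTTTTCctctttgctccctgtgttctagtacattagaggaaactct
Clec4e, chr6:123289822-123290121, minus strand: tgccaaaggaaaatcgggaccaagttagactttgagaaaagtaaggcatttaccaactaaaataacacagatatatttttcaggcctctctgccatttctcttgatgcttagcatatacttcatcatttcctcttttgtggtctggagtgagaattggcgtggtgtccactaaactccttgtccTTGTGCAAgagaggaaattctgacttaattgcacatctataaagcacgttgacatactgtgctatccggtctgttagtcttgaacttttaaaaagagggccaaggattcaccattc
Clec12a, chr6:129349994-129350293, plus strand: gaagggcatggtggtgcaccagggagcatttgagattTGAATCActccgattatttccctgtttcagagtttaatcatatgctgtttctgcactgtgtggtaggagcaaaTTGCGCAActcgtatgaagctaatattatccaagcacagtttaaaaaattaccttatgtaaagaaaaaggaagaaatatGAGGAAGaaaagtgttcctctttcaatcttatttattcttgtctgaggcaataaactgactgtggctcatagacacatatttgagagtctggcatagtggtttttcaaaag
Clec7a, chr6:129472730-129473029, minus strand: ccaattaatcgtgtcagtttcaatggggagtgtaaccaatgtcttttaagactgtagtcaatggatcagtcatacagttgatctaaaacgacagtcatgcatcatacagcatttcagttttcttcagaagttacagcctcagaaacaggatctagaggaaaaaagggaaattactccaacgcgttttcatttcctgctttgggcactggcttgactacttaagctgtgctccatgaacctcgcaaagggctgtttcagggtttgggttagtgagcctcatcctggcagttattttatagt
Searched on both strands were a PU.1 motif (GAGGAAG, in 13.6% of 32851 promoters), a C/EBP motif (TTGCNNAA, in 10.8%), an AP-1 motif (TGANTCA, in 7.81%) and an interferon response motif (GAAA, any pair of bases and GAAA again, in 3.44%). PU.1 and C/EBP factors are regulators of myeloid genes. Clec12a held the PU.1, C/EBP and AP-1 letters, Clec4d the PU.1 and interferon response letters, and Clec4e the C/EBP letters. None of these letters is in the Clec7a window. Of the other members, Clec4a1 held the PU.1 letters, Clec4a2 the AP-1 letters and Clec4b1 the interferon response letters, while Clec4a3 held none. Clec4n is named only. A match describes letters and does not show that a factor binds.

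Each library held between 21.5 and 35.7 M (mega) counts. Levels are in CPM, counts scaled to the TMM-normalised library size, and markers were summed in CPM. The library labelled untreated CD8 T goes against its label: 12 CD8 T cell markers summed to 276.5 CPM there, against 3954 to 6351 CPM in the irradiated CD8 T libraries, and 12 macrophage markers to 18601 CPM, against 1266 to 2818 CPM. Results that rest on it are given with and without it. The CD11c+CD11b- libraries, labelled dendritic cells, held 760 to 3688 CPM of 8 markers of cross-presenting dendritic cells (cDC1). The same markers summed to 735 to 1214 CPM in CD11c+CD11b+ libraries. By edgeR's quasi-likelihood test with the pool as a term, Xcr1, Itgae and Irf8 of them were higher in CD11c+CD11b- cells (adjusted p under 0.05). Batf3, Cadm1, Tlr3, Naaa and Wdfy4 did not pass. Of 8 plasmacytoid dendritic cell markers, Siglech (log2 fold change 6.44), Ly6d (6.29), Ccr9 (4.27), Spib (3.66) and Runx2 (1.72) were higher. Bst2 and Irf7 were lower, and Tcf4 did not pass. The CD11c+CD11b- libraries also held 1388 to 2523 CPM of 7 NK cell markers, against 59.3 to 95.2 CPM in CD11c+CD11b+ libraries. Their CD8 T cell markers summed to 614 to 933 CPM, against 28.6 to 44.8 CPM in CD11c+CD11b+ libraries. Macrophage markers summed to 556 to 1185 CPM in CD11c+CD11b- libraries, 7586 to 14695 CPM in CD11c+CD11b+ libraries and 4612 to 8884 CPM in CD11c-CD11b+ libraries.

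The lectin receptors were highest in the CD11b+ fractions, and the gene with the highest median TPM differed between them. Levels between genes are compared per transcript length, as TPM (length-scaled transcript counts), with medians of 5 libraries. In CD11c+CD11b+ cells the order was Clec7a (458 TPM), Clec4n (265), Clec4a1 (213), Clec4a3 (192), Clec4d (156), Clec4a2 (108), Clec12a (75.9), Clec4e (66.7) and Clec4b1 (2.71). In CD11c-CD11b+ cells Clec4d led with 402 TPM, followed by Clec7a (339), Clec4e (159), Clec4n (151), Clec4a1 (134), Clec4a3 (111), Clec4a2 (74.2), Clec12a (57.1) and Clec4b1 (1.44). By library, Clec7a exceeded Clec4d in the untreated one (149.0 against 147.2 TPM) and with RT alone (339 against 312 TPM). In CPM, not scaled to length, Clec7a was above Clec4d in every library of this population. Clec7a stood at 114 TPM in CD11c+CD11b- cells, and every other member had a median of 21.1 TPM (Clec12a) or lower. The ranges of neighbours in these orders overlapped, except that Clec4b1 lay below the next gene in each myeloid population.

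**Figure D1:**
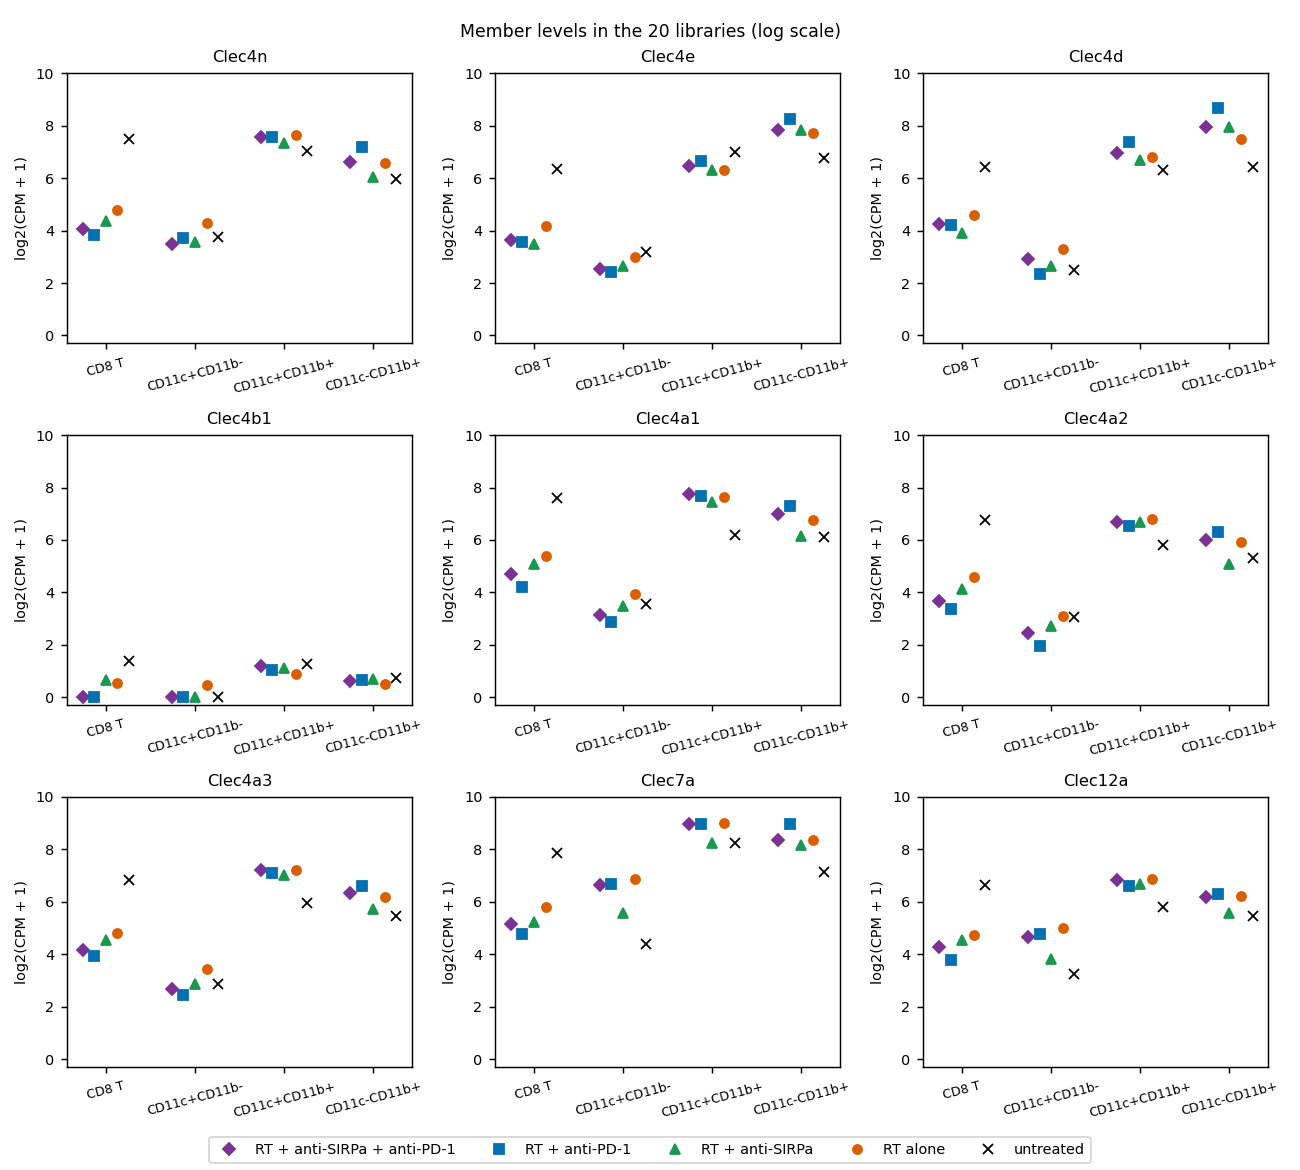
Level of each of the 9 lectin receptor genes, as log2(CPM + 1), in the 20 libraries; each panel is 1 gene, the x axis gives the populations (CD8 T first, then CD11c+CD11b-, CD11c+CD11b+ and last CD11c-CD11b+), and the symbols mark the 5 treatments. The CD11c+CD11b- libraries lie below both CD11b+ populations for every gene, and 1 CD8 T library, labelled untreated, lies far above the other 4 CD8 T libraries, with Clec4a1 at 192 CPM against 17.3 to 41.0 CPM.

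All 9 members were lower in CD11c+CD11b- cells than in CD11c+CD11b+ cells. Clec4e, the Mincle receptor, read 4.83 CPM with RT and both antibodies, 4.30 with RT and anti-PD-1, 5.34 with RT and anti-SIRPa, 7.01 with RT alone and 8.18 untreated in CD11c+CD11b- cells. The same pools gave 88.1, 100.4, 78.8, 79.1 and 127 CPM of Clec4e in CD11c+CD11b+ cells. Clec12a, the inhibitory MICL receptor, read 24.3 CPM with RT and both antibodies, 26.6 with RT and anti-PD-1, 13 with RT and anti-SIRPa, 30.8 with RT alone and 8.48 untreated in CD11c+CD11b- cells, against 114, 97.4, 100.5, 116 and 54.9 CPM in CD11c+CD11b+ cells. The CD11c+CD11b- values lay below every CD11c+CD11b+ value for both genes.

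With the treatment pool as a term, edgeR's quasi-likelihood test called 9 of 9 members lower, where 22.3% of the 18727 genes tested were called lower and 23.1% higher. The median log2 fold change of the members was -4.07, against 0.00 over all genes tested. Among members at 10 CPM or more Clec4d changed most and fell by 4.30 on the log2 scale (SE 0.24, adjusted p = 2.05e-05). Clec4a1, Clec4a2, Clec4a3 and Clec4e fell by 4.01 to 4.24, and Clec4n fell by 3.78 (SE 0.14, adjusted p = 6.27e-06). Clec7a fell by 2.67 (SE 0.27, adjusted p = 0.000272) and Clec12a fell by 2.33 (SE 0.18, adjusted p = 7.44e-05), the smallest changes of the 9. Clec4b1 was at 0 counts in 4 of 5 CD11c+CD11b- libraries and at 0.373 CPM in the other, against 0.851 to 1.41 CPM in CD11c+CD11b+ libraries. It passed the count filter only through the CD11c+CD11b+ libraries, where it is high. Its call as lower was thus set by the filter and adds nothing to the count of members. These are sorted bulk samples, so fewer cells that carry a receptor and less RNA per cell cannot be told apart. Macrophage markers moved with these genes, as given above, and their part in the result was not tested.

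Against CD11c-CD11b+ cells the CD11c+CD11b- cells were again lower in 9 of 9 members, with 24.1% of 18981 genes called lower and 23% higher. Clec4b1 again passed the count filter only through the population where it is high, so its call adds nothing to that count. Here Clec4d fell by 5.16 (SE 0.39, adjusted p = 9.07e-05) and Clec4e fell by 5.15 (SE 0.36, adjusted p = 6.78e-05). The changes were smallest in Clec12a, which fell by 1.71 (SE 0.15, adjusted p = 0.000163), and Clec7a, which fell by 2.20 (SE 0.20, adjusted p = 0.000207). Without single pools 8 or 9 members stayed lower, and the 1 lost was Clec4b1, whose largest value in CD11c+CD11b- cells rests on 10 counts.

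**Figure D2:**
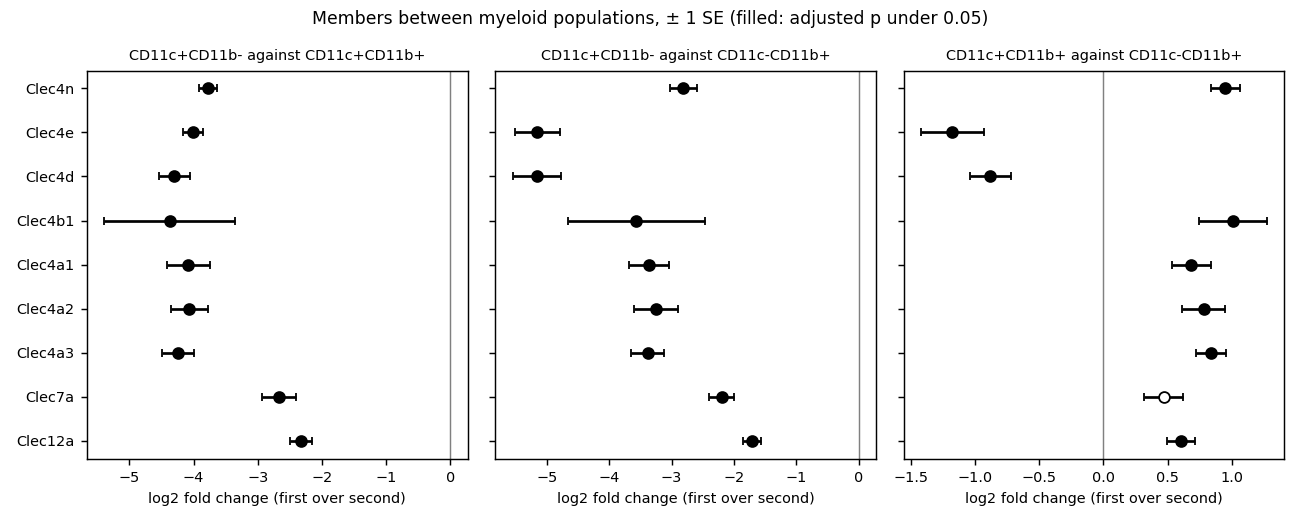
Log2 fold change of each lectin receptor gene, with 1 standard error on each side, in 3 comparisons of populations paired by pool; filled symbols passed an adjusted p of 0.05. CD11c+CD11b- cells lie below both CD11b+ populations for all genes, and only Clec4d (-0.88) and Clec4e (-1.18) lie below 0 between CD11c+CD11b+ and CD11c-CD11b+ cells.

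Between the CD11b+ fractions, Clec4d and Clec4e were lower in CD11c+CD11b+ cells and most other members were higher. Clec4d read 125 CPM with RT and both antibodies, 167 with RT and anti-PD-1, 104 with RT and anti-SIRPa, 111 with RT alone and 78.4 untreated in CD11c+CD11b+ cells, against 249, 411, 245, 178 and 84.2 CPM in CD11c-CD11b+ cells. Clec4e, listed above for CD11c+CD11b+ cells, read 230.2 CPM with RT and both antibodies, 302 with RT and anti-PD-1, 230.1 with RT and anti-SIRPa, 213 with RT alone and 109 untreated in CD11c-CD11b+ cells. Clec4d was lower in the CD11c+CD11b+ library of every pool, at 0.406 to 0.931 of its CD11c-CD11b+ level. Clec4e was lower in the 4 irradiated pools, while the untreated pool had a ratio of 1.16.

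Clec4n, the Dectin-2 gene, went the other way, with 187 CPM with RT and both antibodies, 189.7 with RT and anti-PD-1, 162 with RT and anti-SIRPa, 197 with RT alone and 129 untreated in CD11c+CD11b+ cells. In CD11c-CD11b+ cells it read 97.9 CPM with RT and both antibodies, 143 with RT and anti-PD-1, 64.7 with RT and anti-SIRPa, 94.2 with RT alone and 61.4 untreated. Within each pool the CD11c+CD11b+ value of Clec4n was the higher one, though the untreated CD11c+CD11b+ library lay below the highest CD11c-CD11b+ library.

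By edgeR's quasi-likelihood test with the pool as a term, 6 of 9 members were higher in CD11c+CD11b+ cells, where 12% of 18820 genes were called higher, and 2 were lower, where 12.9% were. Clec4d fell by 0.88 (SE 0.16, adjusted p = 0.00495) and Clec4e fell by 1.18 (SE 0.25, adjusted p = 0.00885). Those higher were Clec4n (log2 fold change 0.95, SE 0.11, adjusted p = 0.000857), Clec4a3 (0.84, SE 0.12, adjusted p = 0.00145), Clec4a2 (0.78), Clec4a1 (0.68), Clec12a (0.61) and, near 1 CPM, Clec4b1 (1.01, SE 0.27). Clec7a did not pass (0.47, SE 0.15, adjusted p = 0.0526). Without the pool term 3 members were called (Clec4b1, Clec4e and Clec4n), in a fit of all 20 libraries that keeps the pool term none was, and without the RT pool 5 were (Clec4a3, Clec4d, Clec4e, Clec4n and Clec12a). Neutrophil markers, 9 genes, summed to 226 to 430.5 CPM in CD11c+CD11b+ libraries and 660 to 3284 CPM in CD11c-CD11b+ libraries, none of them at 0, and their part in the result was not tested.

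The make-up of the receptor set in TPM shows the same split. Clec4d and Clec4e together made a median of 8.42% of the members' summed TPM in CD11c+CD11b- cells, 15.7% in CD11c+CD11b+ cells and 40.6% in CD11c-CD11b+ cells, with a range of 33.6 to 46.4% in the last. Clec7a made 51.8%, 29.4% and 23.8% in the same populations. The Clec7a share of CD11c+CD11b- cells was 23.2% in the untreated library and up to 62.0% in irradiated ones. The 3 Clec4a genes made 16.3% of the sum in CD11c+CD11b- cells, 33.3% in CD11c+CD11b+ cells and 23.7% in CD11c-CD11b+ cells. The summed TPM itself had medians of 193, 1529 and 1338.

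**Figure D3:**
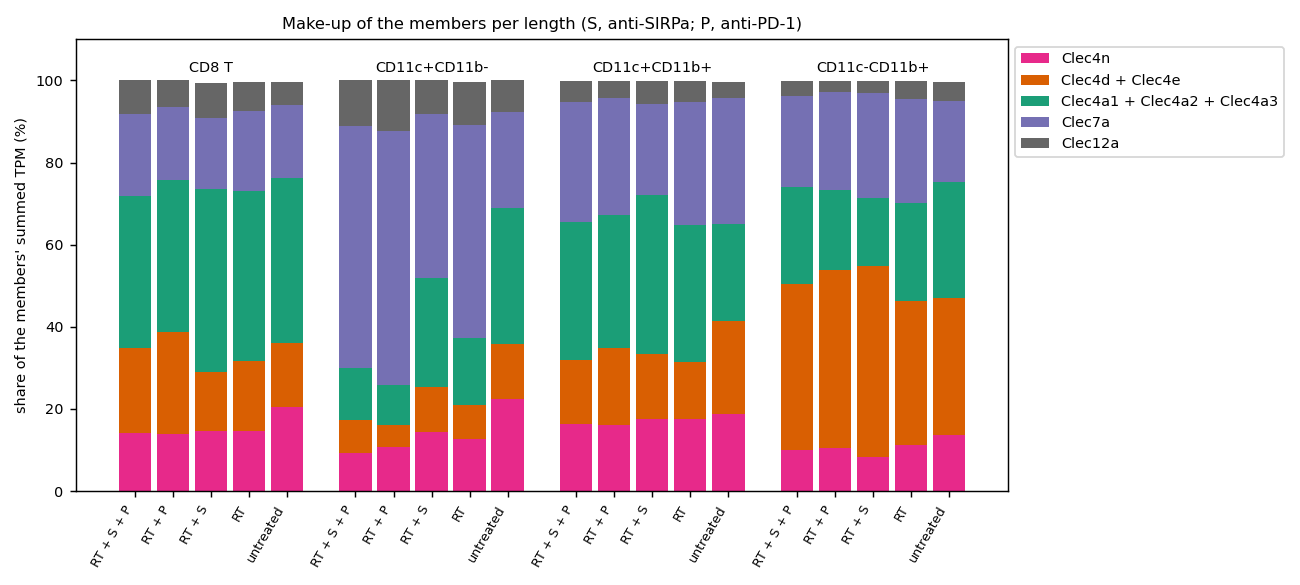
Share of each lectin receptor gene or gene group in the summed TPM of the 9 members, in percent, as 1 stacked bar for each of the 20 libraries. Clec4d and Clec4e fill 33.6 to 46.4% of the bar in CD11c-CD11b+ cells, and Clec7a a median of 51.8% in CD11c+CD11b- cells.

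Levels were also set against the macrophage markers of the same library. Clec4a1 read 9.15 to 12.2 CPM per 1000 CPM of macrophage markers in CD11c+CD11b- cells, 9.58 to 16.7 in CD11c+CD11b+ cells and 11.5 to 17.7 in CD11c-CD11b+ cells, so the ranges overlapped. Clec4n also overlapped, at 10.6 to 21.6, 11 to 17.0 and 10.4 to 16.1, as did Clec4a3, at 5.29 to 8.36, 7.98 to 11.8 and 7.31 to 11.6. Clec4a2 read 5.25 to 6.57 in CD11c+CD11b- cells, below all CD11c+CD11b+ libraries (6.97 to 8.77), and 6.54 to 9.48 in CD11c-CD11b+ cells. Within each pool, though, Clec4a1, Clec4a2 and Clec4a3 were lower in CD11c+CD11b- cells than in either CD11b+ population, while Clec4n went both ways. The share of all genes with this order was not counted. Clec4b1 was at 0 in 4 of 5 CD11c+CD11b- libraries and at 0.319 or lower in every myeloid library. Clec4d and Clec4e were high in CD11c-CD11b+ cells: Clec4e had a median of 6.90 in CD11c+CD11b- cells, 6.35 in CD11c+CD11b+ cells and 34.0 in CD11c-CD11b+ cells, where the lowest value was 18.6 against a highest of 16.7 in CD11c+CD11b+ cells. Clec7a in CD11c+CD11b- cells read 142 per 1000 with RT and both antibodies, 180.2 with RT and anti-PD-1, 52.8 with RT and anti-SIRPa and 98.8 with RT alone, against 20.3 to 41.5 in CD11c+CD11b+ cells and 23.9 to 61.4 in CD11c-CD11b+ cells. The RT and anti-SIRPa library thus lay inside the CD11c-CD11b+ range. The RT and anti-PD-1 library had the highest ratio and the lowest macrophage marker sum (556 CPM). Its Clec7a and Clec12a, at 100.2 and 26.6 CPM, were below those with RT alone, at 115 and 30.8 CPM. Which cells carry these RNAs was not tested. Clec12a read 14.8 to 47.8 in the irradiated CD11c+CD11b- libraries, above all CD11c+CD11b+ (6.85 to 9.32) and CD11c-CD11b+ (7.32 to 11.7) libraries. The untreated CD11c+CD11b- library had 16.7 for Clec7a and 7.16 for Clec12a, against medians of 40.2 and 7.75 in CD11c+CD11b+ cells.

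**Figure D4:**
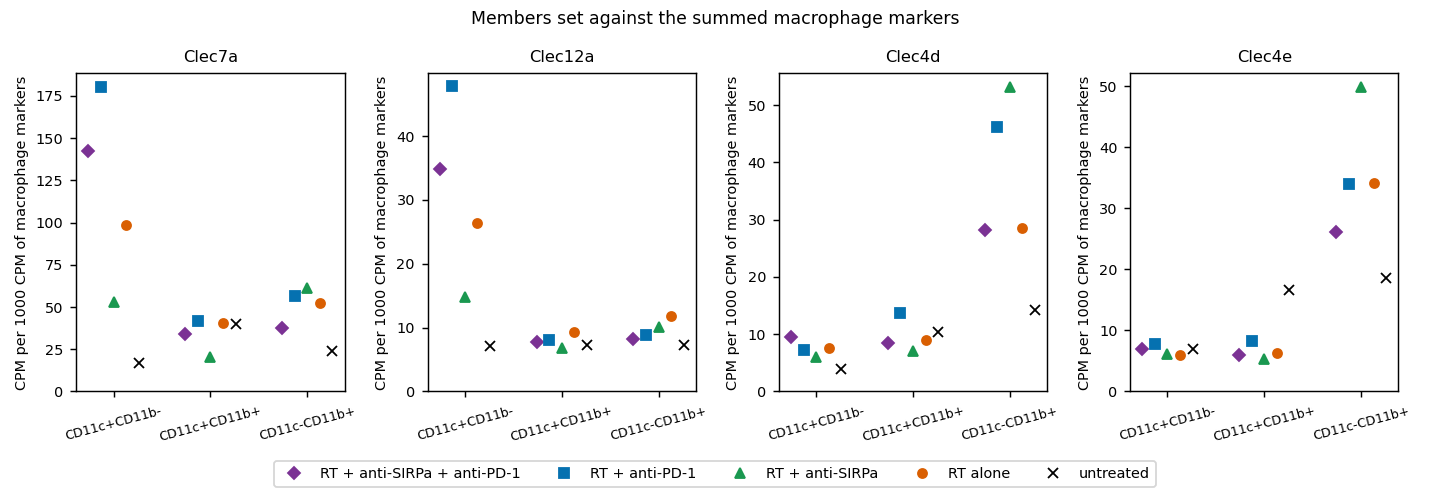
CPM of Clec7a, Clec12a, Clec4d and Clec4e per 1000 CPM of 12 macrophage markers in the same library, for the 15 myeloid libraries, with symbols for the 5 treatments. Clec7a and Clec12a reach 180.2 and 47.8 in irradiated CD11c+CD11b- cells, in the library with the lowest macrophage marker sum. Clec4d and Clec4e reach 53.1 and 49.9 in CD11c-CD11b+ cells.

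Genes of the signalling route and its outputs were followed with 3 lists, of 24 signalling genes, 16 target genes and 22 other C-type lectin receptors. In CD11c+CD11b- cells against CD11c+CD11b+ cells, 15 signalling genes were lower and 2 higher, with a median of -0.55. Among them the adaptor gene Fcer1g fell by 1.29 (SE 0.14), the kinase gene Syk by 1.45 (SE 0.19) and Card9 by 2.35 (SE 0.28), each a smaller change than that of the Fcer1g-dependent receptors. Of the target genes 13 were lower and 2 higher, with a median of -1.61. The neutrophil-attracting chemokine gene Cxcl2 fell by 4.14 (SE 0.21), with 32.7 to 82.8 CPM in CD11c+CD11b- cells against 841 to 1005 CPM in CD11c+CD11b+ cells. Il1b, which encodes interleukin 1 beta, fell by 3.13 (SE 0.26), with 37.5 to 128 CPM against 592 to 700 CPM. Of 17 other lectin receptors tested, 7 were lower and 5 higher, with a median of 0.03. Clec5a, another Syk-coupled receptor, fell by 4.56 (SE 0.28), while Clec9a, a dead-cell receptor of cDC1 cells, rose by 2.94 (SE 0.47), at 7.06 to 67.0 CPM against 2.87 to 5.54 CPM.

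Between CD11c+CD11b+ and CD11c-CD11b+ cells, 11 signalling genes were higher and 0 lower at the adjusted limit, with a median of 0.29. They included Fcer1g (0.57, SE 0.08), Card9 (0.56, SE 0.10) and the phosphatase gene Ptpn6 (0.81, SE 0.07). Syk did not pass (-0.09, adjusted p = 0.564). Of the targets 4 were lower, among them Ccl3 (-1.17, SE 0.28) and Cxcl2 (-0.75, SE 0.21), and 1 was higher, Il12b (4.40, SE 0.58). Of 15 other lectin receptors tested, 7 were higher and 2 lower. Mgl2, a galactose-type lectin of dendritic cells and macrophages, rose by 4.16 (SE 0.13), at 25.9 to 93.1 CPM in CD11c+CD11b+ cells against 1.91 to 5.98 CPM in CD11c-CD11b+ cells. Between CD11c+CD11b- and CD11c-CD11b+ cells, 10 signalling genes were lower and 3 higher, 14 targets were lower and 2 higher, and 4 other lectin receptors of 15 tested were lower and 8 higher.

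CD8 T cells were set against the mean of the myeloid populations, with and without the library labelled untreated CD8 T. That mean includes CD11c+CD11b- cells, and irradiated CD8 T libraries did not all lie below the irradiated CD11c+CD11b- ones for any member, as given below. Clec4a1 read 24.9 CPM with RT and both antibodies, 17.3 with RT and anti-PD-1, 32.9 with RT and anti-SIRPa and 41.0 with RT alone, while the library labelled untreated CD8 T had 192 CPM. For Clec7a the irradiated values were 35.0, 26.1, 36.03 and 54.7 CPM in the same order, and that library had 229.9 CPM. Over all 5 pools 2 of 9 members were lower in CD8 T cells than in the mean of the myeloid populations, where 15.9% of 20382 genes were called lower and 19.5% higher: Clec4e fell by 1.31 (SE 0.40, adjusted p = 0.0197) and Clec7a fell by 1.59 (SE 0.59, adjusted p = 0.0461). Without any 1 of the irradiated pools 0 members were called. Without the library labelled untreated CD8 T, 8 of 9 were lower, by 1.06 (Clec4a3) to 2.67 (Clec7a), and Clec4b1 did not pass (-0.86). The share of all genes called in that fit is not given, so the count of 8 is not set against it.

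Irradiated CD8 T libraries were next compared with irradiated CD11c+CD11b- libraries. All 4 irradiated CD8 T libraries lay above every irradiated CD11c+CD11b- library for 5 of 9 members, and for 14% of 15691 genes, while none of the 9 lay below in all, as 12.6% of genes did. The 5 members were Clec4a1 (17.3 to 41.0 against 6.38 to 14.3 CPM), Clec4a2 (9.22 to 23.0 against 2.92 to 7.68), Clec4a3 (14.2 to 27.2 against 4.51 to 9.76), Clec4d (13.9 to 23.0 against 4.05 to 8.94) and Clec4e (10.1 to 17.1 against 4.30 to 7.01). Macrophage markers summed to 1266 to 2818 CPM in these CD8 T libraries and 556 to 1168 CPM in these CD11c+CD11b- libraries, and their part in the result was not tested. The other members overlapped. Clec7a averaged 38.0 ± 12.0 CPM in irradiated CD8 T libraries and 90.2 ± 30.2 CPM in irradiated CD11c+CD11b- libraries (SD, n = 4 each), and Clec12a 19.8 ± 5.50 and 23.7 ± 7.60 CPM. Clec4n read 13.2 to 26.9 CPM and 10.2 to 18.4 CPM.

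Irradiation was tested as 4 irradiated pools against 1 untreated pool, so each result rests on a single untreated library. In CD11c+CD11b+ cells Clec4a1 and Clec4a3 rose. Clec4a1 read 213 CPM with RT and both antibodies, 201 with RT and anti-PD-1, 175 with RT and anti-SIRPa and 200.5 with RT alone, against 72.7 CPM untreated. Clec4a3 read 147, 137, 130 and 147 CPM in the same irradiated pools, against 60.6 CPM untreated. The untreated library lay below all irradiated ones for both genes. The log2 fold changes were 1.42 for Clec4a1 (SE 0.15, adjusted p = 0.0437) and 1.19 for Clec4a3 (SE 0.13, adjusted p = 0.0437), the 2 members called, where 0.257% of 20995 genes were called higher and 0.0857% lower.

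For the inhibitory receptors Clec4a2 (0.87, SE 0.13, adjusted p = 0.0554) and Clec12a (0.94, SE 0.14, adjusted p = 0.0554) the test was not passed. The values of Clec4a2 were 92.3 to 109 CPM in irradiated libraries and 55.1 CPM in the untreated one, and those of Clec12a were 97.4 to 116 CPM and 54.9 CPM. Clec4d (0.67), Clec7a (0.55), Clec4n (0.49), Clec4e (-0.57) and Clec4b1 (-0.40) did not pass either. The calls of Clec4a1 and Clec4a3 were lost with no filter on low counts (adjusted p = 0.067), in the fit of all 20 libraries, and without the RT pool or the pool with both antibodies. Over the alternatives Clec4a1 kept a log2 fold change of 1.39 to 1.48, with adjusted p-values as high as 0.235, and DESeq2 called 4 members, Clec4a1, Clec4a2, Clec4a3 and Clec12a, and 7.07% of all genes. More members passed with the antibodies as terms of the fit and without the RT and anti-SIRPa pool. The shares of all genes called in these fits are not given. Macrophage markers summed to 12084 to 14695 CPM in the irradiated libraries and 7586 CPM in the untreated one, and fibroblast markers to 771 to 1775 CPM and 4655 CPM. Markers of inflammatory monocytes, 8 genes, summed to 4681 to 5633 CPM in the irradiated libraries and 9187 CPM in the untreated one, and of them Chil3 fell by 2.20 (adjusted p = 0.0207) and Vcan fell by 1.41 (adjusted p = 0.0437). Their part in the result was not tested.

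After irradiation CD11c+CD11b- libraries held more Clec7a and Clec12a than the untreated library. Clec7a read 99.0 CPM with RT and both antibodies, 100.2 with RT and anti-PD-1, 46.3 with RT and anti-SIRPa and 115 with RT alone, against 19.8 CPM untreated. Clec12a read 24.3, 26.6, 13 and 30.8 CPM in these pools, against 8.48 CPM untreated. All irradiated libraries lay above the untreated one, with RT and anti-SIRPa the nearest to it. The log2 fold changes were 2.10 for Clec7a (SE 0.52, adjusted p = 0.0988) and 1.39 for Clec12a (SE 0.48, adjusted p = 0.162), and neither passed. Of 8 members tested, 0 were called by edgeR, 2 had an unadjusted p under 0.05 (22.5% of all genes did) and 2 were called by DESeq2 (15.7% of all genes were), where edgeR called 0.00475% of 21046 genes higher and 0.0143% lower. The edgeR calls rose without the RT and anti-SIRPa pool, and the share of all genes called there is not given.

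The other 6 members tested had changes of -0.70 to 0.34 in these cells, and none passed. Clec4d read 4.05 to 8.94 CPM in irradiated libraries and 4.60 CPM in the untreated one (0.34), higher than untreated in 3 of 4. Clec4a1 read 6.38 to 14.3 CPM in irradiated libraries and 10.8 CPM in the untreated one (-0.26), and Clec4n 10.2 to 18.4 CPM and 12.5 CPM (-0.06). Clec4e read 4.30 to 7.01 CPM and 8.18 CPM (-0.70, SE 0.31, adjusted p = 0.254). In these libraries cDC1 markers summed to 1791 to 3688 CPM after irradiation and 760 CPM untreated, while macrophage markers summed to 556 to 1168 CPM and 1185 CPM. Fibroblast markers summed to 434 to 1631 CPM and 6206 CPM. Markers of plasmacytoid dendritic cells, 8 genes, summed to 798 to 1596 CPM in irradiated libraries and 630.2 CPM untreated, with Siglech at 46.9 to 231 CPM and 10.8 CPM (3.64, adjusted p = 0.103, not passed). Inflammatory monocyte markers summed to 2030.3 to 2942 CPM and 3928 CPM. NK cell markers summed to 1882 to 2523 CPM and 1388 CPM. The part of these markers in the Clec7a and Clec12a values was not tested.

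In CD11c-CD11b+ cells the largest irradiation changes of the members were in Clec4d, Clec7a and Clec4e, and none passed the edgeR test. Clec4d read 249 CPM with RT and both antibodies, 411 with RT and anti-PD-1, 245 with RT and anti-SIRPa and 178 with RT alone, against 84.2 CPM untreated. Clec4e read 230.2, 302, 230.1 and 213 CPM in these pools, against 109 CPM untreated. Clec7a read 330.2, 503, 283 and 327 CPM in these pools, against 140.5 CPM untreated. Clec4a1 (69.4 to 157 against 67.7 CPM untreated), Clec4a3 (51.8 to 94.9 against 43.0), Clec4n (64.7 to 143 against 61.4) and Clec12a (46.4 to 78.4 against 43.1) also lay above the untreated library throughout. Clec4a2 read 33.0 to 77.7 CPM against 38.5 CPM untreated. RT with anti-PD-1 was the highest library for every member but Clec4b1, and also held the highest macrophage marker sum, 8884 CPM. The shares of all genes with these orders of libraries were not counted.

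The log2 fold changes were 1.69 for Clec4d (SE 0.46, adjusted p = 0.179), 1.37 for Clec7a (SE 0.34, adjusted p = 0.175) and 1.16 for Clec4e (SE 0.24, adjusted p = 0.173). By edgeR 0 of 9 members were called, 4 had an unadjusted p under 0.05 (19% of all genes did), and DESeq2 called these 3 genes (8.37% of all genes), where edgeR called 0.0047% of 21292 genes higher and 0% lower. Leaving out the RT and anti-SIRPa pool raised the edgeR calls, and the share of all genes called there is not given. Neutrophil markers summed to 660 to 3284 CPM in the irradiated libraries and 912 CPM in the untreated one, macrophage markers to 4612 to 8884 CPM and 5890 CPM, and their part was not tested.

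Clec4e had opposite signs in the CD11b+ fractions after irradiation, with 78.8 to 100.4 CPM irradiated against 127 CPM untreated in CD11c+CD11b+ cells and 213 to 302 CPM irradiated against 109 CPM untreated in CD11c-CD11b+ cells. The irradiation change was larger by 1.71 on the log2 scale in CD11c-CD11b+ cells than in CD11c+CD11b+ cells. The test of a difference among the 3 myeloid populations gave an adjusted p of 0.0575 for Clec4e and 0.108 for Clec7a, so neither passed. For this difference 0 of 9 members were called by edgeR, 3 had an unadjusted p under 0.05 (15.1% of all genes did) and DESeq2 called 2 (9.04% of all genes), where edgeR called 0.63% of 23009 genes.

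**Figure D5:**
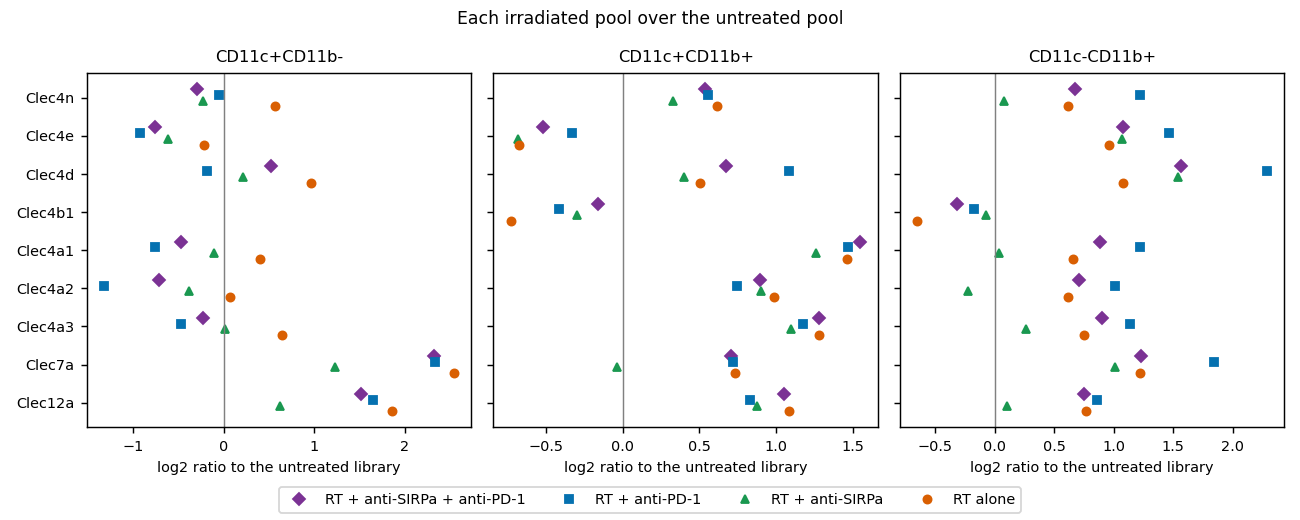
Log2 ratio of CPM in each of the 4 irradiated libraries to the untreated library of the same population, for each lectin receptor gene in the 3 myeloid populations; Clec4b1 in CD11c+CD11b- cells is not drawn because its untreated library had 0 counts. Clec4a1 and Clec4a3 lie above 0 in CD11c+CD11b+ cells, Clec7a and Clec12a in CD11c+CD11b- cells and Clec4d in CD11c-CD11b+ cells, while Clec4e lies below 0 in CD11c+CD11b+ cells and above 0 in CD11c-CD11b+ cells.

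In CD8 T cells 8 of 9 members were called lower in irradiated pools, by 2.26 to 3.28, where 12.5% of 21121 genes were called lower and 11.9% higher. That comparison is with the library labelled untreated CD8 T alone, in which macrophage markers stood at 18601 CPM, so no value without it can be given. Beyond the members and the cell type markers, irradiation moved Cxcl1 and Clec2d, of the 3 lists of signalling, target and other lectin genes, past the limit in CD11c+CD11b+ cells. The chemokine gene Cxcl1 fell by 1.96 (SE 0.21, adjusted p = 0.0437) and Clec2d, a ligand of an NK cell inhibitory receptor, rose by 1.14 (SE 0.14, adjusted p = 0.0467). No gene of the signalling list passed there, and none of the 3 lists had a gene past the limit in CD11c+CD11b- or CD11c-CD11b+ cells.

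Anti-PD-1 and anti-SIRPa were each tested over the 4 irradiated pools, with 1 residual degree of freedom. The other antibody was a term of each fit, so the spread left includes any joint effect of the antibodies. With anti-PD-1, 3 members fell in CD8 T cells, where 4.28% of 18784 genes were called lower and 2.69% higher. Clec4a1 read 24.9 CPM with RT and both antibodies and 17.3 with RT and anti-PD-1, against 32.9 with RT and anti-SIRPa and 41.0 with RT alone, a fall of 0.84 (SE 0.18, adjusted p = 0.0357). Clec4a2 fell by 0.92 (SE 0.20, adjusted p = 0.0374) and Clec4a3 by 0.69 (SE 0.15, adjusted p = 0.0409). For Clec4a1 the libraries with anti-PD-1 lay below those without it, by 1.24 between RT with anti-PD-1 and RT alone and by 0.40 between RT with both and RT with anti-SIRPa. These calls were lost with no filter on low counts, with the anti-SIRPa term dropped and in the joint fit of 16 irradiated libraries. Macrophage markers in these CD8 T libraries summed to 2002 CPM with RT and both antibodies, 1266 with RT and anti-PD-1, 2530.5 with RT and anti-SIRPa and 2818 with RT alone, in the same order as Clec4a1, and their part was not tested.

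In the myeloid populations edgeR called 0 members for anti-PD-1. Of the CD11c+CD11b+ values, 3 members had an unadjusted p under 0.05 (25.2% of all genes did) and DESeq2 called 1 (7.79% of all genes), Clec4d (0.43, edgeR adjusted p = 0.066), where edgeR called 1.92% of 19191 genes higher and 4.74% lower. Clec4d read 125 CPM with RT and both antibodies and 167 with RT and anti-PD-1, against 104 with RT and anti-SIRPa and 111 with RT alone. In the same cells 4 signalling genes rose, among them Syk (0.44, SE 0.09, adjusted p = 0.0338) and Malt1 (0.70), which encodes a protease that acts with Card9. For CD11c+CD11b- cells 3 of 8 members had an unadjusted p under 0.05 (24.9% of all genes did) and DESeq2 called 0 (5.83% of all genes), where edgeR called 1.22% of 19130 genes higher and 2.89% lower. In CD11c-CD11b+ cells 5 members had an unadjusted p under 0.05 (15.1% of all genes did) and DESeq2 called 2 (5.19% of all genes), Clec4a1 (0.71, edgeR adjusted p = 0.138) and Clec4n (0.60, edgeR adjusted p = 0.138), where edgeR called 0% of 19468 genes. Clec4d in CD11c-CD11b+ cells differed by 1.21 between RT with anti-PD-1 and RT alone and by 0.02 between RT with both and RT with anti-SIRPa.

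With anti-SIRPa edgeR called 0 members in any population and DESeq2 called 0 (0.094 to 2.48% of all genes). At an unadjusted p under 0.05 stood 2 members in CD11c+CD11b+ cells, 2 in CD11c+CD11b- cells, 5 in CD11c-CD11b+ cells and 0 in CD8 T cells, where 11.4%, 12.3%, 4.36% and 9.77% of all genes did. Median log2 fold changes of the members were -0.095, -0.15, -0.39 and -0.060 in the same order. Over all genes tested the medians were -0.0019, 0.027, -0.0031 and 0.019. The shares of all genes called higher by edgeR were 0.125%, 0.00523%, 0% and 0.0905% in these populations, and those called lower 0.0313%, 0%, 0% and 0.0106%. Clec7a had the same sign in the myeloid populations, at -0.42 (SE 0.15) in CD11c+CD11b+ cells, -0.65 (SE 0.27) in CD11c+CD11b- cells and -0.41 (SE 0.16) in CD11c-CD11b+ cells. The pairs behind these values differ. RT with anti-SIRPa lay below RT alone by a log2 ratio of -0.77 in CD11c+CD11b+ cells and -1.32 in CD11c+CD11b- cells, while RT with both antibodies against RT with anti-PD-1 gave -0.01 and -0.02. In CD11c-CD11b+ cells the same pairs gave -0.21 and -0.61. The change with either antibody was called different among the myeloid populations for 0 members by edgeR, where 0.00936% of 21365 genes were called in each test, with 4 members at an unadjusted p under 0.05 for anti-PD-1 (7.79% of all genes) and 2 for anti-SIRPa (5.56% of all genes). DESeq2 called 4 for anti-PD-1 (2.34% of all genes) and 0 for anti-SIRPa (0.652% of all genes).

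Over the 15 myeloid libraries each member had close followers among 10177 genes, measured by Pearson's r of log2(CPM + 1). These values describe libraries that share pools, populations and depth, and no p is given. Clec4a1 was nearest to Clec4a3 (0.998) and C3ar1 (0.998), a complement receptor gene, and Trem2 (0.997), a lipid-sensing receptor gene of macrophages. Clec4d was nearest to Acod1 (0.994), the itaconate-producing enzyme, and Clec4e to Thbs1 (0.996), with Cxcl2 at 0.993. Clec7a was nearest to Cnr2 (0.993), Clec12a to Tifab (0.994), Clec4n to F11r (0.996) and Clec4b1 to Clta (0.951). Among the members, Clec4d and Clec4e had an r of 0.982 and Clec7a and Clec12a 0.971 over these libraries, which include differences between populations. Within CD11c+CD11b+, CD11c+CD11b- and CD11c-CD11b+ libraries alone, r was -0.33, 0.27 and 0.98 for Clec4d and Clec4e. For Clec7a and Clec12a it was 0.66, 0.99 and 0.84 in the same order. The printed promoters of neither pair share a motif match.

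The transcripts behind the gene sums differed in kind. Clec7a was counted mainly on Clec7a-204 (89.1% of its counts in all 20 libraries), which the annotation marks as a polymorphic pseudogene with 6 exons, and on Clec7a-202 (10.5%), with 5 exons, and the first share had medians of 88.8 to 90.6% over the populations. Clec4e counts fell on the coding Clec4e-201 (40.8%) and on retained-intron transcripts, led by Clec4e-205 (30.8%). Clec4d counts fell on Clec4d-201 (75.8%) and on Clec4d-203 (21%), annotated as a target of nonsense-mediated decay. Clec4a2 counts were divided between Clec4a2-201 (48.4%) and Clec4a2-202 (41.7%). The share of Clec4a2-201 over 5 libraries was 4.70% in CD11c+CD11b- cells (37 of 787 counts, 1.97 to 12.7% by library), against 47.0% in CD11c+CD11b+ cells (32.0 to 71.1%) and 53.1% in CD11c-CD11b+ cells (41.0 to 65.4%). How the authors' counting divided reads among transcripts of 1 gene was not tested. Clec4a2 shared 6.83% of its 50-base words with other genes, mostly Clec4a4, and Clec4b1 8.68%, mostly with Clec4a2, so these genes are uncertain where reads could be split. The shares were 0.686% for Clec4n, 0.457% for Clec12a and 0 for the other 5 members.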

How the data were processed

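The authors deposited estimated counts per transcript, all whole numbers. The submitters' processing notes name FastQC 0.11.8, HISAT2, StringTie, edgeR 3.34.0 and the build GRCm38, and no version of HISAT2 or StringTie. Of 142699 transcripts, 141469 matched GENCODE M21 and were summed to 55260 genes; the 1230 others held at most 0.399% of a library. None of 190 library pairs held identical values.

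CPM were scaled by TMM, and TPM were computed from the estimated counts and transcript lengths. Tests used R 4.3.3 with edgeR 4.0.16 (quasi-likelihood; filterByExpr with counts of 10 per library and 15 in total), limma 3.58.1 and DESeq2 1.42.0. Benjamini-Hochberg adjustment ran over every tested gene of a comparison, and an adjusted p under 0.05 was a call. Shares of genes called by DESeq2 are of genes it gave an adjusted p. Standard errors are approximate and come from the F statistic. Tables and figures used Python 3.11.15, numpy 2.4.6, pandas 2.3.3 and matplotlib 3.10.9. The pipeline was tested on simulated data.

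The pool was a term of the population tests because the 4 populations of a treatment come from the same pooled tumours. Over 7750 genes, deviations of libraries from 1 pool correlated by 0.20 to 0.79 among the myeloid populations and by -0.13 to 0.39 with CD8 T cells. The 9 members and the gene lists were chosen with earlier results of these data known. All members were reported. From each list the text could name up to 4 called genes with the largest change at a mean of 10 CPM. Fcer1g, Syk, Card9, Il12b and Siglech were named outside this rule where it did not reach them, after their values were seen. So were the dendritic cell markers named for CD11c+CD11b- against CD11c+CD11b+ cells. A count of 3 was the floor for a gene at 0.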

Additional observations from a re-analysis of the deposited data

Results flagged for a closer look

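In 72 groups of 4 or 5 libraries the highest or lowest library was compared with its nearest neighbour, and chance alone marks about 1 group in 20. In CD11c+CD11b+ cells the untreated library stood below the irradiated ones for Clec4a1 (72.7 CPM) and Clec4a3 (60.6 CPM). Among the irradiated CD11c+CD11b+ libraries RT with anti-SIRPa stood below the others for Clec7a (298 CPM).

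The library labelled untreated CD8 T stood above the other CD8 T libraries for 8 members. Its values were 192 CPM for Clec4a1, 107 for Clec4a2, 112 for Clec4a3, 84.9 for Clec4d, 81.4 for Clec4e, 178 for Clec4n, 229.9 for Clec7a and 100.002 for Clec12a.

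In CD11c+CD11b- cells the RT library stood above the others for Clec4b1 (0.373 CPM, over 5 libraries and over the 4 irradiated ones, from 10 counts) and, over the 5 libraries, for Clec4n (18.4 CPM).

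The irradiation change of Clec4e had opposite directions in the populations, with log2 fold changes of -0.57 in CD11c+CD11b+ cells, -0.70 in CD11c+CD11b- cells and 1.16 in CD11c-CD11b+ cells. The difference was tested and did not pass, with an adjusted p of 0.0575 by edgeR's quasi-likelihood test.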

How the results depend on the processing

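Each irradiation result rests on 1 untreated library per population, and the antibody tests have 1 residual degree of freedom, so no pool could be left out of them. Members called, under the alternatives that moved a count over 1.5 times, were as follows, and their causes were not tested. The shares of all genes called are not given beside these counts, which are thus not results about the members alone. For CD11c+CD11b+ against CD11c-CD11b+ cells, 3 were called with no replicate block (the pool term removed), 0 in the fit of 20 libraries, and 5 to 9 without single pools. For CD8 T against myeloid cells, 1 was called with no filter, 1 with no replicate block, 0 to 8 without single pools, 8 without the library labelled untreated CD8 T, and 8 without the untreated pool and with no block, the last chosen after seeing the data. For irradiation in CD11c+CD11b+ cells, 0 were called with no filter, 4 by DESeq2, 7 with antibody terms, 0 in the fit of 20 libraries, 0 to 6 without single pools, and 4 with the count filter set over all libraries as 1 group, which was added after seeing the data. In CD11c+CD11b- cells, 2 were called by DESeq2, 2 with antibody terms, 1 in the fit of 20 libraries and 0 to 2 without single pools. In CD11c-CD11b+ cells, 3 were called by DESeq2 and 0 to 7 without single pools. For anti-PD-1, DESeq2 called 1 in CD11c+CD11b+ cells, 2 in CD11c-CD11b+ cells and 1 in CD8 T cells, and in CD8 T cells 0 were called with no filter, with the other antibody's term dropped or in the fit of 16 libraries. For differences among populations, DESeq2 called 2 for irradiation and 4 for anti-PD-1, and the added filter 1 for irradiation.

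Signs turned only for members that were not called. In CD8 T against myeloid cells with no replicate block, log2 fold changes were 0.13 for Clec4a1, 0.14 for Clec4a2 and 0.021 for Clec4a3. Leaving out single pools gave ranges of -1.09 to 0.20 for Clec4a1, -1.10 to 0.079 for Clec4a2, -1.05 to 0.11 for Clec4a3 and -0.90 to 1.33 for Clec4b1. Clec4b1 gave -0.86 without the library labelled untreated CD8 T and -0.62 without the untreated pool and the block. For irradiation in CD11c+CD11b- cells, antibody terms gave 0.13 for Clec4a1, 0.35 for Clec4a3 and 0.34 for Clec4n. Without single pools Clec4a3 ranged from -0.31 to 0.092 and Clec4n from -0.28 to 0.043. For anti-SIRPa in CD11c+CD11b+ cells, Clec4a2 gave 0.0020 with RLE scaling, 0.010 with no filter, 0.023 by DESeq2 and 0.042 in the fit of 16 libraries, where Clec12a gave 0.018. In CD11c+CD11b- cells Clec4a2 gave -0.053 with the anti-PD-1 term dropped and -0.0018 in the fit of 16 libraries.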
